A study of Mus musculus with 2 samples.

Results

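The ephrins, semaphorins, Slits and netrins and their receptors were described in RNAseq profiles of SOX2-GFP lingual epithelial cells of the newborn mouse. Members were chosen by name. All entries of the deposited expression table named as Eph receptors (*Epha*, *Ephb*), ephrins (*Efna*, *Efnb*), semaphorins or plexins were taken, together with *Nrp1*, *Nrp2*, *Robo1* to *Robo4*, *Slit1* to *Slit3*, *Ntn1*, *Ntn3*, *Ntn4*, *Unc5a* to *Unc5d*, *Dcc* and *Neo1*. This gave 68 genes of 21628 entries, 33 of them ligands and 35 receptors. *Ntn3* was not analysed here, and the other names were each found once.

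The cells were taken from tongue epithelium at P0, from pups of the Sox2GFP genotype in which GFP reports transcription of *Sox2*, a transcription factor of taste bud and tongue epithelial progenitors. Pups of several litters, male and female and of mixed background, were pooled, the epithelium was peeled and dissociated, and about 100000 live cells each were sorted as GFP_High (GFPhigh) and GFP_Low (GFPlow). All cells therefore carried the reporter, and the populations are discrete brightness bins cut from a continuum. Each population gave 1 library, so no value below has a replicate, an error or a p-value, and a difference is one between 2 libraries.

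Guidance cues were first described as signals that steer growing axons, and many of them also act between epithelial cells. Eph receptors are receptor tyrosine kinases bound by membrane-anchored ephrins on neighbouring cells, and the contact sends signals into both cells. Semaphorins, secreted or membrane-bound, act through plexins, with neuropilins as co-receptors for most secreted class 3 members. Slits are secreted ligands of Robo receptors, and netrins bind DCC, neogenin and the UNC5 receptors.

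Expression is given as FPKM, mapped fragments scaled to transcript length and library size, which allows levels of different genes to be compared per length. A gene was called enriched in a population at 5 FPKM or more there and a ratio of at least 1.5 over the other population. Of the 68 genes, 49 reached 5 FPKM in at least 1 population (72.1%, against 62.3% of all table entries above 0), 43 in GFPhigh and 44 in GFPlow cells. Another 8 peaked between 1 and 5 FPKM and 11 stayed under 1 FPKM in both.

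Of the 49 guidance genes at 5 FPKM or more, 10 were enriched in GFPhigh cells (20.4%) and 17 in GFPlow cells (34.7%). Among all 10760 table entries at that level, 9.48% were enriched in GFPhigh and 8.9% in GFPlow cells, 18.4% in either direction, and for the guidance genes the share in either direction was 55.1%. Taken over all 21590 entries with values, whatever their level, 9.16% were enriched. At 2-fold or more stood 16 of the 49 guidance genes (32.7%), against 8.5% of all entries. At 4-fold or more the guidance genes held 7 of 49 (14.3%), against 2.62% of all entries. Regardless of size, 33 of the 49 were higher in GFPlow cells (67.3%, all entries 55.4%). On the TPM scale, where FPKM are rescaled to one total per library and each GFPhigh/GFPlow log2 ratio shifts by -0.10, 34 of 49 were higher in GFPlow cells (69.4%, all entries 66.3%), and 7.54% of all entries were enriched in GFPhigh and 11.4% in GFPlow cells. GFPhigh cells thereby held 51.6% of the enriched entries by FPKM and 39.8% by TPM, and of the enriched guidance genes 37.04% and 30.8%. With GFPlow scaled by the median ratio, 32 of 49 were higher in GFPlow cells (65.3%, all entries 50.4%). The median difference in log2(FPKM + 1), GFPhigh minus GFPlow, was -0.24 over the 68 genes and -0.02 over all entries above 0 in at least 1 library.

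**Figure D1:**
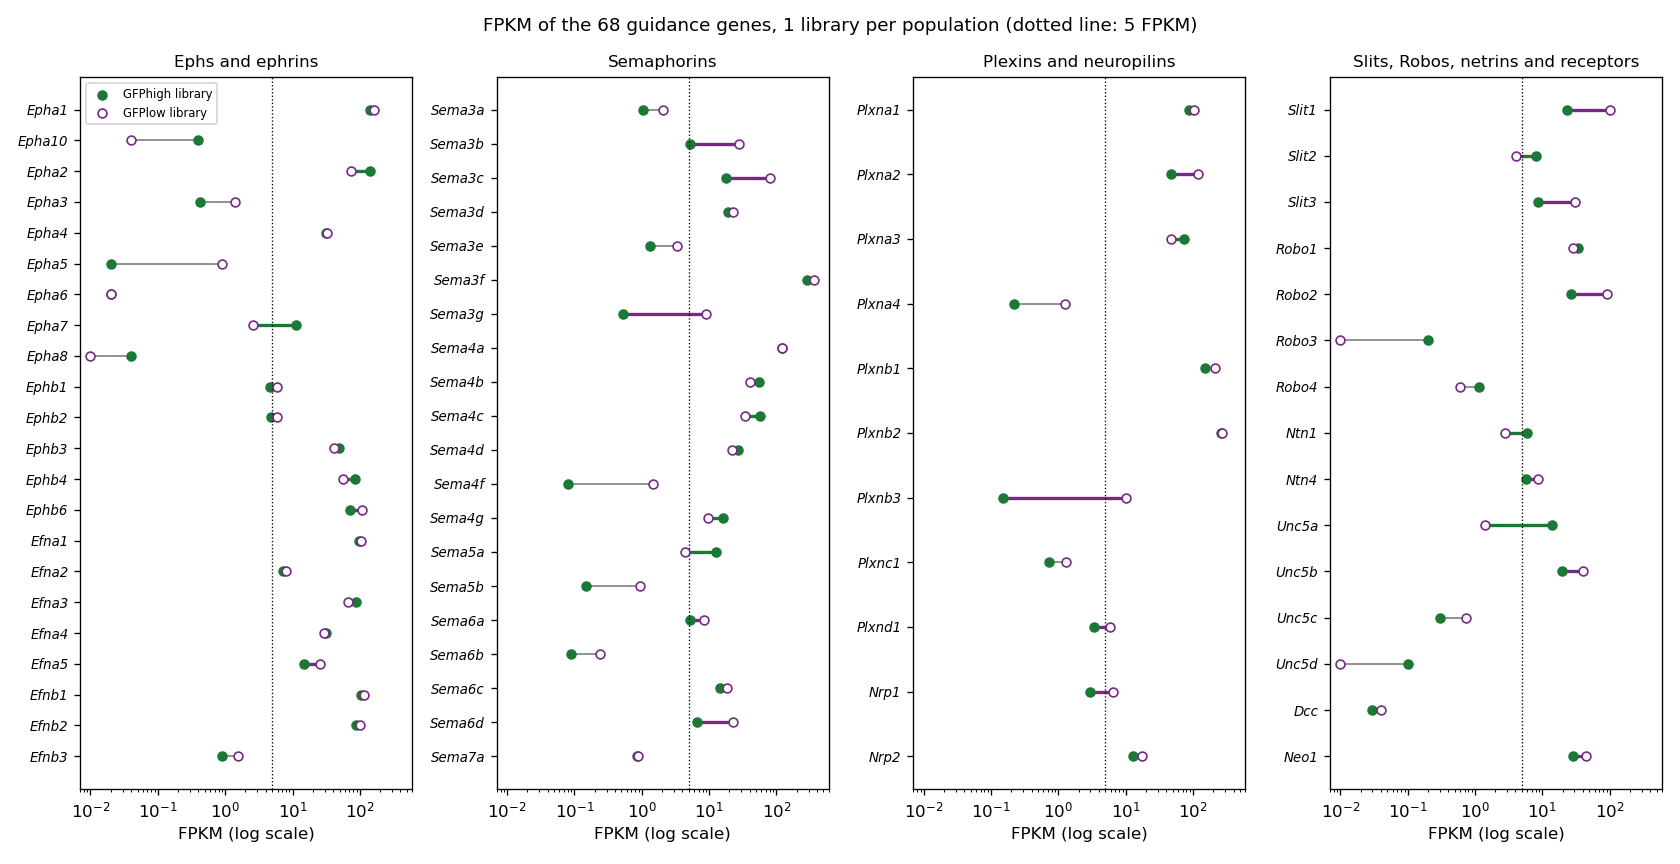
FPKM (log scale) of each of the 68 guidance genes in the GFPhigh (filled green) and GFPlow (open purple) library, joined by a line that is green for the 10 genes enriched in GFPhigh, purple for the 17 enriched in GFPlow and grey otherwise. *Unc5a* and *Epha7* show the longest green lines, *Plxnb3* and *Sema3g* the longest purple ones.

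Enriched genes were found in most families. Those of GFPhigh cells were the receptors *Epha2*, *Epha7*, *Ephb4*, *Plxna3* and *Unc5a* and the ligands *Sema4c*, *Sema4g*, *Sema5a*, *Slit2* and *Ntn1*. The receptors enriched in GFPlow cells were *Ephb6*, *Plxna2*, *Plxnb3*, *Plxnd1*, *Nrp1*, *Robo2*, *Unc5b* and *Neo1*, and the ligands *Efna5*, *Sema3b*, *Sema3c*, *Sema3g*, *Sema6a*, *Sema6d*, *Slit1*, *Slit3* and *Ntn4*. No B-type ephrin, *Sema7a* or *Plxnc1* was among them. Of the 27, 6 had a ratio under 1.6, between 1.51 for *Ephb4* and 1.58 for *Sema6a*. Just short of the threshold stood *Plxnb1*, 1.40-fold higher in GFPlow cells, and *Nrp2*, 1.38-fold.

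The sequences upstream of the enriched genes with the largest ratios in each direction are shown for what they hold in common and where they differ. RefSeq promoter entries (GRCm38.p6) were found for 58 of the 68 genes, and the 250 bases before the first listed start were read. The windows are chr13:54949161-54949410 for *Unc5a* and chr4:28812881-28813130 for *Epha7*, enriched in GFPhigh cells, and chrX:73756853-73757102 for *Plxnb3* and chr14:31217623-31217872 for *Sema3g*, enriched in GFPlow cells. All lie on the plus strand and are written 5′ to 3′, with CpG dinucleotides in capitals.
Unc5a: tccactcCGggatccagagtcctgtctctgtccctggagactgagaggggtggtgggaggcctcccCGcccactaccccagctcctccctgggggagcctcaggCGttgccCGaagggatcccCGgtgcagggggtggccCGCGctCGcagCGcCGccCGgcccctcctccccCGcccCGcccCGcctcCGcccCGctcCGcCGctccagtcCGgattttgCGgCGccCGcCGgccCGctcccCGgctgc
Epha7: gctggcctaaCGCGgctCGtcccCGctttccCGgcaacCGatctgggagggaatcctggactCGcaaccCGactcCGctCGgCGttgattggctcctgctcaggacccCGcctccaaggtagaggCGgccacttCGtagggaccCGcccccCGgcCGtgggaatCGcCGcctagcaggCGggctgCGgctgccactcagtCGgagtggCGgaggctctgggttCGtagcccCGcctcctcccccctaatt
Plxnb3: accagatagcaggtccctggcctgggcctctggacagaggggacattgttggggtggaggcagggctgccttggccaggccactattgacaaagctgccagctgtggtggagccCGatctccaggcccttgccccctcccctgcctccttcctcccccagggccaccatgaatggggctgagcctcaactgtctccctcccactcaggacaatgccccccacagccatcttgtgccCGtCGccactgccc
Sema3g: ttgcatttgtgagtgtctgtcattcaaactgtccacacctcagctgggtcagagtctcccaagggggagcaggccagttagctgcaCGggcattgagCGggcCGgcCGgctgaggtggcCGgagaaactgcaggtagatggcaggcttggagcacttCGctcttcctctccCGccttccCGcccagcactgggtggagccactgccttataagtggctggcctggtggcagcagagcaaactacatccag

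The windows of *Unc5a* and *Epha7* each hold 25 CpGs, that of *Sema3g* 8 and that of *Plxnb3* 3. The contrast does not extend to the other enriched genes, since the median was 17 CpGs for the 9 GFPhigh-enriched genes with an entry and 22 for the 14 GFPlow-enriched genes. Over all 58 guidance genes the median was 16.5 CpGs, against 11 for 15624 genes of the deposited table. The SOX core letters AACAAT or AACAAAG, searched on both strands, occur in 4 of the 58 windows (6.9%, those of *Efna4*, *Ephb1*, *Plxnb3* and *Sema4d*) and in 12.2% of all windows of this length. The forkhead core letters TGTTTAC or TGTTTGC occur in 1, that of *Efna2*, and in 6.36% of all windows. These are matches of letters and not binding sites. The authors' own motif search used binding motifs rather than fixed letters, in regions reaching farther upstream and past the start. That search placed *Ephb4* among the genes with motifs of both FOXA1 and FOXA2, while the *Ephb4* window read here held neither forkhead core. Method and window differ, so the absence of these letters from a window does not show that a gene lacks a forkhead motif. The letters searched are mostly A and T, and the median GC content was 64.8% in the 58 windows against 56% in all windows. The shares were not adjusted for base composition.

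Among Eph receptors, *Epha2* stood highest in GFPhigh and *Epha1* in GFPlow cells. *Epha2* (chromosome 4, 141301240 to 141329384), a receptor of ephrin-A1 in many epithelia, had 143 FPKM in GFPhigh and 73.2 FPKM in GFPlow cells, a 1.96-fold enrichment. *Epha1*, an epithelial Eph receptor, was at 140.02 and 165 FPKM. In GFPhigh cells *Epha2* and *Epha1* thus made up 43.9% and 42.9% of the summed EphA FPKM, while in GFPlow cells *Epha1* made up 59.9% and *Epha2* 26.5%. *Epha4*, which binds ephrins of both types, was nearly level at 31.2 and 32.5 FPKM. *Epha7* (chromosome 4, 28813131 to 28967499), known from the developing nervous system, was at 11.2 FPKM in GFPhigh and 2.57 FPKM in GFPlow cells, 4.36-fold. The remaining EphA receptors were scarce. *Epha3* had 0.43 and 1.38 FPKM, and *Epha5*, *Epha6*, *Epha8* and *Epha10* were all at 0.90 FPKM or less in both populations.

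Of the EphB receptors, *Ephb4*, best known as the receptor of ephrin-B2 in veins, had 85.7 FPKM in GFPhigh and 56.96 FPKM in GFPlow cells. Its ratio of 1.51 barely passed, and it did not pass on the TPM scale (1.40) or with 1 added to each FPKM. *Ephb6*, which lacks kinase activity, showed the opposite order, with 71.03 FPKM in GFPhigh and 107 FPKM in GFPlow cells, 1.51-fold, a call lost after scaling to the median ratio (1.47). *Ephb4* was the largest part of the EphB sum in GFPhigh cells (39.8%) and *Ephb6* in GFPlow cells (49.5%), whereas the sum was nearly equal, at 215 and 217 FPKM, and turned direction after scaling to the median ratio. *Ephb3* was at 49.1 and 40.9 FPKM. *Ephb1* (4.68 and 5.93 FPKM) and *Ephb2* (4.83 and 5.91 FPKM) were expressed at lower levels.

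Of 7 ephrins at 5 FPKM or more 1 was enriched, a share close to the 18.4% of all entries. *Efna1*, the preferred ligand of EphA2, had 97.8 FPKM in GFPhigh and 103.9 FPKM in GFPlow cells. *Efna3*, at 88.4 and 66.4 FPKM, was 1.33-fold higher in GFPhigh cells. *Efna4* had 31.2 and 29.7 FPKM, and on the TPM scale its order turned. *Efna1*, *Efna3* and *Efna4* lie close together on chromosome 3, between 89271733 and 89338028. Part of the exons of *Efna3* (14.1%) and *Efna4* (10.5%) overlaps antisense genes. *Efna2* was low in both, at 7.2 and 7.93 FPKM. *Efna5* was the only enriched ephrin, with 15.04 FPKM in GFPhigh and 25.2 FPKM in GFPlow cells, 1.68-fold. The transmembrane B-type ephrins *Efnb1* (103.5 and 114.7 FPKM) and *Efnb2* (86.2 and 100.1 FPKM) were abundant in both populations and within 1.25-fold, and *Efnb3* was scarce (0.89 and 1.54 FPKM).

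Class 3 semaphorins, which are secreted, were higher in GFPlow cells for all 7 members, by ratios from 1.17 to 16.8. *Sema3f* (chromosome 9, 107681500 to 107710475), which acts mainly through neuropilin-2, was the highest ligand gene in both libraries, with 282 FPKM in GFPhigh and 364 FPKM in GFPlow cells, and was not enriched. *Sema3c* (chromosome 5, 17574281 to 17730268), known from neural crest and cardiac outflow development, had 17.7 and 80.4 FPKM, 4.53-fold higher in GFPlow cells. *Sema3b*, on chromosome 9 like *Sema3f*, was at 5.19 and 27.6 FPKM, 5.31-fold. *Sema3g* (chromosome 14, 31217860 to 31230352) was nearly limited to GFPlow cells, with 8.90 FPKM there and 0.53 FPKM in GFPhigh cells, 16.8-fold. The GFPhigh value corresponds to about 62 reads at the depth estimated below. *Sema3d* was almost level, at 19.1 and 22.4 FPKM, and the axon repellent *Sema3a* (1.05 and 2.10 FPKM) and *Sema3e* (1.33 and 3.39 FPKM) were low. The summed FPKM of the class was 327 in GFPhigh and 509 in GFPlow cells, a ratio of 1.55. *Sema3f* alone made up 86.3% of this sum in GFPhigh and 71.6% in GFPlow cells.

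Class 4 semaphorins, which are membrane-bound, went the other way for most members. The sum was 275 FPKM in GFPhigh and 231 FPKM in GFPlow cells. *Sema4c* (57.8 and 34.5 FPKM, 1.67-fold) and *Sema4g* (15.9 and 9.60 FPKM, 1.66-fold), both ligands of plexin-B2, were GFPhigh-enriched. *Sema4b* (54.7 and 41.1 FPKM) and *Sema4d* (27.01 and 21.9 FPKM), the ligand of plexin-B1, were higher in GFPhigh cells without passing 1.5-fold. *Sema4a*, the highest of the class at 119.6 and 122.6 FPKM, was level, and its order turned when the libraries were scaled to their median ratio. *Sema4f* was the exception, with 0.08 FPKM in GFPhigh and 1.47 FPKM in GFPlow cells.

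*Sema5a* (chromosome 15, 32244810 to 32696341), a transmembrane semaphorin with thrombospondin repeats, had 12.7 FPKM in GFPhigh and 4.39 FPKM in GFPlow cells, 2.88-fold and the largest ratio among GFPhigh-enriched ligands. *Sema5b* stayed under 1 FPKM (0.15 and 0.95). The transmembrane class 6, whose members bind A-type plexins, had its whole sum lower in GFPhigh cells, at 26.5 FPKM against 49.5. *Sema6d* had 6.62 and 22.6 FPKM, 3.42-fold higher in GFPlow cells, and *Sema6a* 5.27 and 8.35 FPKM, 1.58-fold. *Sema6c* was at 14.5 and 18.3 FPKM and *Sema6b* at 0.09 and 0.24 FPKM. *Sema7a*, a lipid-anchored semaphorin, and its receptor gene *Plxnc1* were both low, at 0.84 and 0.87 FPKM and at 0.73 and 1.31 FPKM.

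The B-type plexins *Plxnb2* and *Plxnb1* were the highest receptor genes of the whole set in both libraries. *Plxnb2* had 259.9 FPKM in GFPhigh and 273.6 FPKM in GFPlow cells, and *Plxnb1* 152.8 and 214 FPKM. *Plxnb3* (chromosome X, 73757090 to 73772514) was at 0.15 FPKM in GFPhigh and 10.2 FPKM in GFPlow cells, the largest ratio of all members at 67.9. This is about 25 reads against about 2309. Plexin-B3 is a receptor of semaphorin 5A, so that *Sema5a* and *Plxnb3* were enriched in opposite populations.

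A-type plexins split by member. *Plxna1* was at 86.2 and 105.1 FPKM. *Plxna2* (chromosome 1, 194618218 to 194816869) had 47.2 FPKM in GFPhigh and 117 FPKM in GFPlow cells, 2.48-fold, and *Plxna3* had 72.6 and 47.3 FPKM, 1.54-fold higher in GFPhigh cells. The call of *Plxna3* did not hold on the TPM scale (1.43). *Plxna3* was thus 35.2% of the A-type sum in GFPhigh and 17.5% in GFPlow cells, and *Plxna2* 22.9% and 43.2%. *Plxna4* was scarce, at 0.22 and 1.26 FPKM.

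The summed co-receptors were low, at 15.6 and 24.05 FPKM, beside the sums of class 3 semaphorins (327 and 509 FPKM) and plexins (623 and 776 FPKM). Single members of both families were lower than *Nrp2*. *Nrp2*, the partner of *Sema3f*, had 12.7 FPKM in GFPhigh and 17.5 FPKM in GFPlow cells. *Nrp1*, expressed in endothelium, neurons and mesenchyme, had 2.99 and 6.57 FPKM, 2.2-fold. *Plxnd1*, an endothelial receptor of semaphorin 3E, had 3.42 and 5.93 FPKM, 1.73-fold. Endothelial cells were measured by a list of 9 markers, of which 7 were higher in GFPhigh cells, while *Flt1* and *Tek* were lower. Only 2 of the 9 reached 5 FPKM, and *Pecam1* (5.31 and 2.38 FPKM) alone was enriched. The sum was 37.4 FPKM in GFPhigh and 26.9 FPKM in GFPlow cells, with *Egfl7* (18.5 and 15.9 FPKM) its largest part. *Nrp1* and *Plxnd1* were thus ordered opposite to most of a list of mainly low markers. *Robo4*, the endothelial Robo receptor, followed the order of the list with 1.15 and 0.59 FPKM. The part of endothelial cells in these values was not tested.

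**Figure D2:**
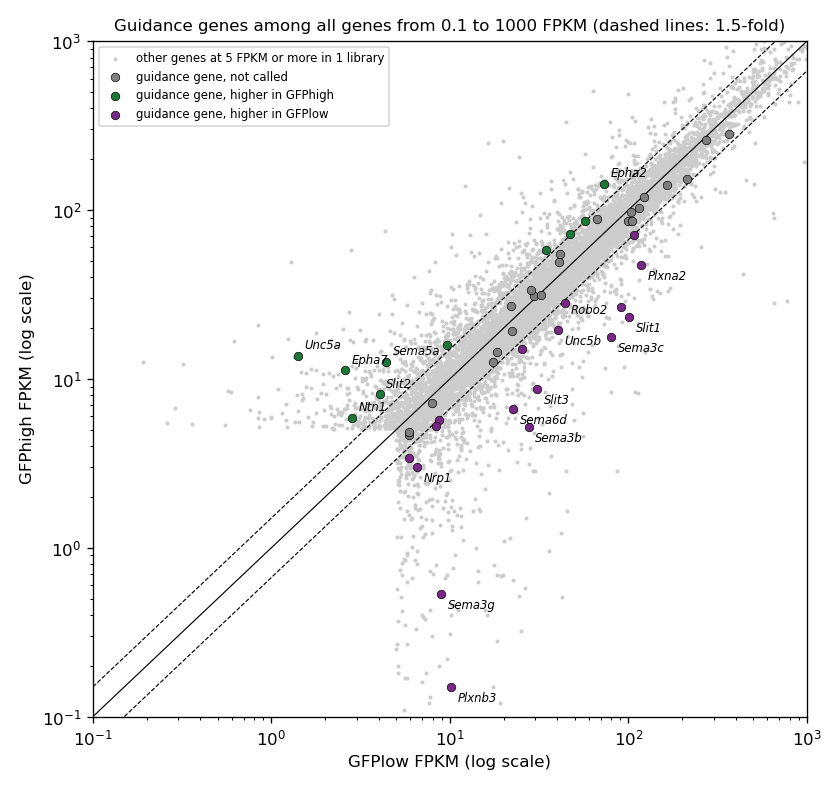
GFPhigh against GFPlow FPKM (both axes logarithmic) for the 49 guidance genes at 5 FPKM or more in at least 1 library over the other genes at that level that fall within the axes (light grey), with lines at equality and at 1.5-fold. The 10 GFPhigh-enriched genes (green) lie above the upper dashed line, the 17 GFPlow-enriched genes (purple) below the lower one, and names are given from 1.9-fold up.

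Of all families, Slits had the largest ratio between their summed levels, under each scaling run. *Slit1* (chromosome 19, 41600257 to 41743665), a secreted repellent of axons, had 23.4 FPKM in GFPhigh and 101 FPKM in GFPlow cells, 4.33-fold. *Slit3* had 8.68 and 30.8 FPKM, 3.55-fold in the same direction. *Slit2* was enriched in GFPhigh cells instead, with 8.11 and 4.04 FPKM, 2.01-fold, and made up 20.2% of the Slit sum in GFPhigh and 2.97% in GFPlow cells. The sum of the 3 ligands was 40.2 FPKM in GFPhigh and 136 FPKM in GFPlow cells, a ratio of 3.39, which lay between 3.29 and 3.63 under the other scalings.

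The receptors *Robo1* and *Robo2* stood in opposite order in the populations. *Robo1* was at 33.5 FPKM in GFPhigh and 28.3 FPKM in GFPlow cells and was the higher Robo gene of GFPhigh cells, at 54.5% of the Robo sum. *Robo2* (chromosome 16, 73891839 to 74411825) had 26.6 and 90.35 FPKM, 3.40-fold, and was 75.8% of the sum in GFPlow cells. *Robo3*, known from commissural axons, was listed at 0.20 and 0.01 FPKM. The GFPlow value is about 2 reads, at or under the floor of 3 reads, so no ratio is given.

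Netrins were at low levels in both populations and differed by member. *Ntn1*, the classical netrin, had 5.89 FPKM in GFPhigh and 2.82 FPKM in GFPlow cells, 2.09-fold. *Ntn4*, a netrin of basement membranes, had 5.67 and 8.68 FPKM, 1.53-fold higher in GFPlow cells, a call lost when the libraries were scaled to their median ratio (1.49). The sums were nearly equal, at 11.6 and 11.5 FPKM, and turned direction on the TPM scale.

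The receptors of netrins held the largest ratio in favour of GFPhigh cells among genes at 5 FPKM or more. *Unc5a* (chromosome 13, 54949411 to 55006018), a repulsive netrin receptor, had 13.75 FPKM in GFPhigh and 1.41 FPKM in GFPlow cells, 9.75-fold, about 1473 and 201 reads. *Unc5b*, known from vessels and epithelia, went the other way with 19.6 and 40.2 FPKM, 2.06-fold. *Unc5b* made up 94.9% of the UNC5 sum in GFPlow cells, and *Unc5a* and *Unc5b* shared it in GFPhigh cells at 40.8% and 58.02%. *Neo1*, which binds netrins and repulsive guidance molecules, had 28.1 and 43.9 FPKM, 1.56-fold. *Dcc*, the attractive netrin receptor, was at 0.03 and 0.04 FPKM, *Unc5c* at 0.30 and 0.73 FPKM and *Unc5d* at 0.10 and 0.01 FPKM, so *Neo1* was the only gene of its pair at a substantial level.

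**Figure D3:**
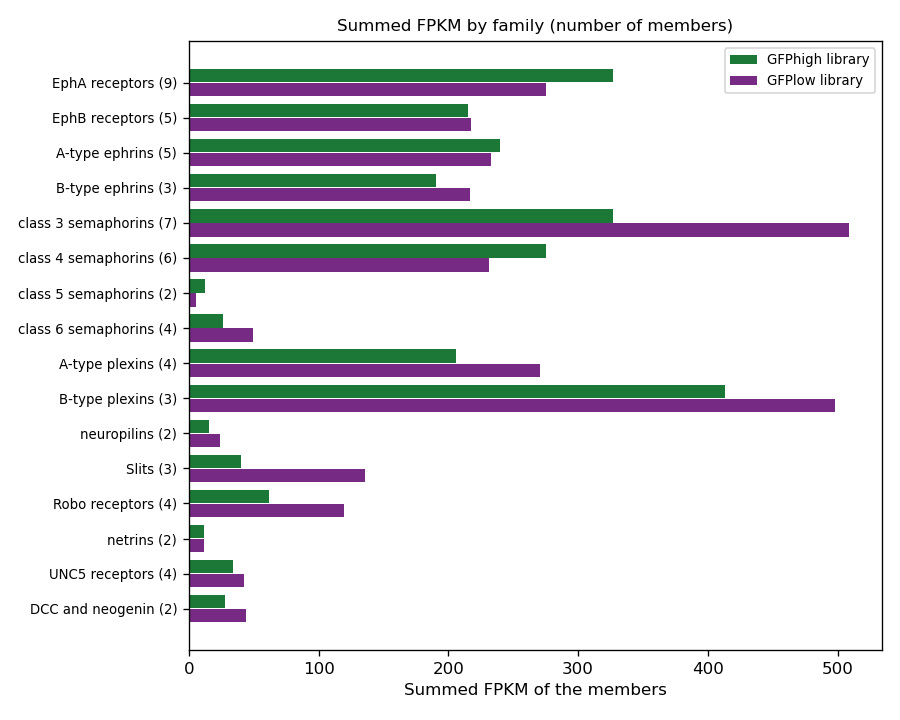
Summed FPKM of each family with more than 1 member (number of members in brackets) in the GFPhigh (green) and GFPlow (purple) library. Class 3 semaphorins (327 and 509 FPKM) show the widest gap in FPKM and Slits (40.2 and 136 FPKM) the largest ratio, and EphB receptors, A-type ephrins and netrins nearly no gap.

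Set side by side by family, ligand and receptor sums did not always shift together. Slits and Robo receptors were both higher in GFPlow cells (ratios 3.39 and 1.94), as were class 3 semaphorins (1.55), neuropilins (1.54), class 6 semaphorins (1.87) and A-type plexins (1.31). Class 4 semaphorins were 1.19-fold higher in GFPhigh cells, while B-type plexins, which bind them, were 1.21-fold higher in GFPlow cells. EphA receptors were 1.19-fold higher in GFPhigh cells, while A-type ephrins differed by under 3% and turned direction on the TPM scale. Each of the other directions in this paragraph was the same on the TPM scale and after scaling to the median ratio. Over all ligands the sums were 1124 and 1393 FPKM, and over all receptors 1304 and 1498 FPKM.

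The genes that act with these cues inside or at the surface of the cell were also counted. Of 86 such genes listed, 85 were analysed and 64 reached 5 FPKM, of which 8 were enriched in GFPhigh and 6 in GFPlow cells. These 14 are 21.9% of the 64, near the 18.4% of all entries at that level, and their values are given as a description. Of the partners of Eph receptors, the Rac regulators *Chn2* (6.67 and 2.55 FPKM) and *Kalrn* (9.87 and 4.07 FPKM) were GFPhigh-enriched, and the exchange factors *Vav3* (49.8 and 106 FPKM) and *Ngef* (46.9 and 73.6 FPKM) GFPlow-enriched. Of the partners of plexins, *Farp1* (27.5 and 14.9 FPKM), the adaptor *Gipc1* (314 and 204.5 FPKM) and the GTPase *Rhod* (60.96 and 34.96 FPKM) were GFPhigh-enriched. The actin-oxidizing enzyme *Mical2* (14.3 and 59.5 FPKM) and the integrin *Itga1* (0.69 and 5.39 FPKM) were GFPlow-enriched. Among partners of Slits and Robo receptors, *Srgap3* (5.53 and 1.43 FPKM) and the proteoglycan *Sdc1* (1030 and 565 FPKM) were GFPhigh-enriched, and *Flrt2* (17.2 and 27.9 FPKM) and the actin regulator *Enah* (139 and 237 FPKM) GFPlow-enriched. On the list drawn up for netrin receptors, the adaptor *Bcar1* (36.4 and 20.9 FPKM) was the only enriched gene. Each gene is given under its list, and some act with more than 1 family.

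Other cell types differed between the libraries in the same direction as many of these genes. Among 10 markers of Schwann cells and neural crest, 8 of the 9 at 5 FPKM or more were GFPlow-enriched, with sums of 76.4 and 326 FPKM, *Sox10* (0.51 and 42.7 FPKM) and *Foxd3* (0.12 and 19.01 FPKM) among them. Of 11 fibroblast markers, 6 of the 7 at that level were GFPlow-enriched, with sums of 478 and 2294 FPKM. Pericyte and smooth muscle markers had 3 of 5 enriched in GFPlow cells (112.9 and 160.7 FPKM), while *Notch3* (57.04 and 38.05 FPKM) was higher in GFPhigh cells, just under 1.5-fold. The part of these cells in *Plxnb3*, *Sema3g*, *Sema3b*, *Sema3c*, *Slit1*, *Slit3*, *Robo2* and the other GFPlow-enriched genes was not tested, and in sorted pools fewer cells of a type and less RNA per cell cannot be told apart. Basal keratinocyte markers were abundant in both, with sums of 25796 and 32952 FPKM. Each was higher in GFPlow cells, and 1 of 7, *Itgb4* (424 and 664 FPKM), was enriched there. The part of basal keratinocytes in the GFPlow-enriched guidance genes was not tested. Suprabasal markers were higher in GFPhigh cells by their sums (73332 and 32582 FPKM), with 5 of 7 enriched. Of 7 taste cell and progenitor markers at 5 FPKM or more, 6 were GFPhigh-enriched, among them *Sox2* (112 and 59.02 FPKM), whose reporter was the basis of the sort. The other one, *Entpd2*, a gene of type I taste cells, was GFPlow-enriched (23.7 and 42.2 FPKM). Of 8 neuron markers found, only *Stmn2* reached 5 FPKM and was enriched (10.4 and 2.22 FPKM, GFPhigh). The sums of the neuron list were 16.1 and 4.17 FPKM. Its median difference in log2(FPKM + 1), over genes above 0 in at least 1 library, was 0.12. The part of suprabasal keratinocytes, taste cells and neurons in the GFPhigh-enriched guidance genes was not tested either. Leukocyte markers had no enriched gene (20.2 and 23.2 FPKM), skeletal muscle markers 1, *Tnnt3* (GFPhigh, sums of 20.7 and 19.95 FPKM), and melanocyte markers 1, *Mitf* (17.2 and 1.24 FPKM). *Mitf* carried the melanocyte sum (18.5 and 3.91 FPKM). The pigment genes *Dct* (0.23 and 0.91 FPKM) and *Tyrp1* (0.04 and 0.88 FPKM) were lower and *Pmel* (1.09 and 0.73 FPKM) higher in GFPhigh cells, and *Tyr* was at 0 in both. The median difference in log2(FPKM + 1) of the melanocyte list, without *Tyr*, was -0.20.

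**Figure D4:**
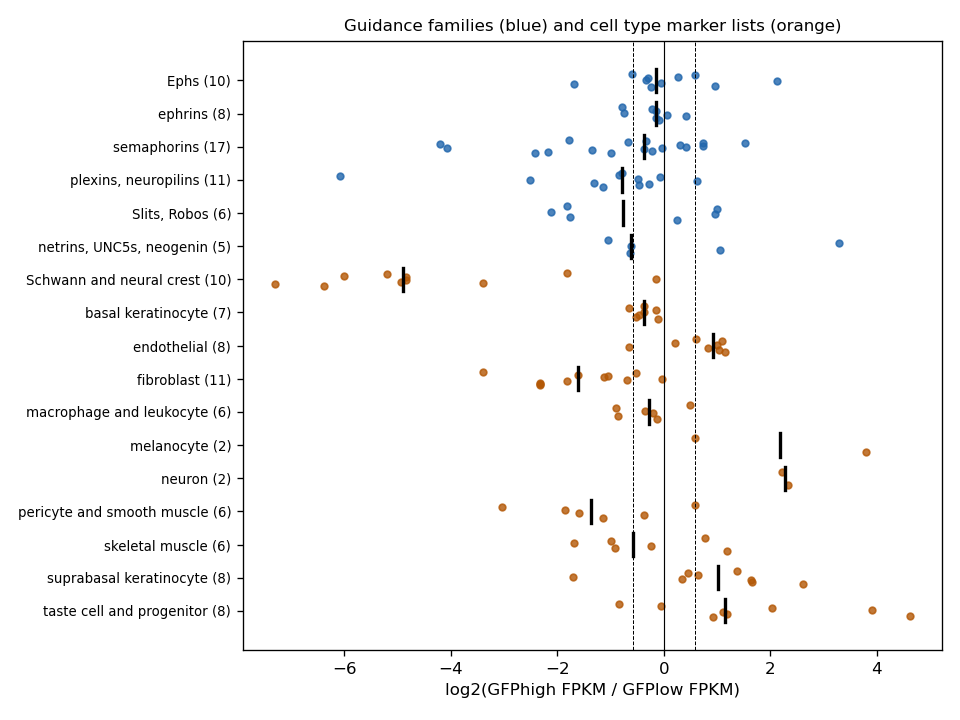
The log2 ratio of GFPhigh to GFPlow FPKM for each guidance gene (blue, by family) and each cell type marker (orange, by list) that reached 1 FPKM in at least 1 library and was above 0 in both, with the median of each row as a black bar, equality as a solid line and 1.5-fold as dashed lines. Guidance genes reach from *Plxnb3* at -6.09 to *Unc5a* at 3.29, and Schwann and neural crest markers lie farthest to the left of the lists. The bars differ from the list medians in the text, which are of log2(FPKM + 1) and include genes under 1 FPKM.

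The precision of these values is limited by depth and by the single library. The labels give about 75000000 reads per sample, and the steps between low FPKM fit about 27000000 usable reads in the GFPhigh and 36000000 in the GFPlow library, approximate figures. At these depths all 49 genes at 5 FPKM or more had at least about 25 reads in each library. The floor set for a ratio was 3 reads. The reads given assume the whole exon length of a gene, so they may be too high for genes with several transcripts. Little of the exon sequence of the members is shared, as 11 of 68 have over 1% of their 50-nt windows in another annotated gene, at most 8.13% (*Efna3*).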

How the data were processed

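RNAseq of 1 SOX2-GFPhigh and 1 SOX2-GFPlow library of P0 lingual epithelium was analyzed. Per the labels and the methods, the authors made stranded libraries, trimmed single-end reads of 50 nt (Trimmomatic 0.36), mapped them to mm10 with GSNAP, obtained FPKM with Cufflinks 2.2.1 and deposited FPKM rounded to 2 decimals. Whether reads were counted by strand is not given in the sources used here. The FPKM columns are named as means. The labels give 1 sample per population, so each was read as the value of 1 library. A further column with the signed ratio of the populations, the authors' own comparison, was not used.

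Annotation was GENCODE M21 (mm10). The 21 entries it gives another type than protein-coding were dropped, and 17 further ones lacked a number. All 68 members matched the annotation by identifier and symbol. Ratios, and differences of log2(FPKM + 1), were computed with Python 3.11.15 and pandas 2.3.3. Enrichment took at least 5 FPKM in the higher population and 1.5-fold. With 1 library per population no test was run. Read depth was estimated from low FPKM of single-transcript genes with 400 to 2500 nt of exons, less 200 nt. Reads of a member were approximated from all its annotated exons, less 200 nt, whatever its number of transcripts. At the depths found, 61.6% of 224 low values in GFPhigh and 62.3% of 167 in GFPlow cells lay within 0.15 of a whole read, and reads were not recovered. The calculation of the calls, not the calls themselves, was checked on simulated data.

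Members, marker lists and partner lists were chosen with earlier results of these data known. Every member is named, with both FPKM where 1 FPKM was reached. Listed partners are named where enriched, and 1 further list is not reported here. Alternatives were FPKM minimums (5 in each population, 1, 10, none), a 2-fold minimum, pseudocounts of 1 and 0.1, TPM and GFPlow scaled by the median ratio (0.973).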

Additional observations from a re-analysis of the deposited data

How the results depend on the processing

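By the main rule 10 guidance genes were enriched in GFPhigh and 17 in GFPlow cells. With 5 FPKM required in each population, 5 were enriched in GFPhigh cells, and the calls of *Epha7*, *Nrp1*, *Ntn1*, *Plxnb3*, *Plxnd1*, *Sema3g*, *Sema5a*, *Slit2* and *Unc5a* were lost by construction. With a 2-fold minimum, 5 and 11 were enriched, and without an FPKM minimum 15 and 28. Under the remaining alternatives the counts stayed within 1.5 times. On the TPM scale they were 8 and 18, with *Ephb4* and *Plxna3* lost and *Plxnb1* gained. After scaling to the median ratio they were 10 and 15, with *Ephb6* and *Ntn4* lost. With 1 added to each FPKM they were 9 and 15, with *Ephb4*, *Ntn4* and *Sema6a* lost. No called ratio changed direction under TPM, median scaling or either pseudocount. The median log2 difference of the 68 genes lay between -0.33 and -0.20 under its 6 alternatives. No paired analysis was possible because each population has 1 library, and for the same reason no replicate could be left out.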

Other observations

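Relatives of these families that the naming rule does not take were looked at after their values were seen. *Slitrk6*, a transmembrane protein with Slit-like repeats, had 14.6 FPKM in GFPhigh and 5.06 FPKM in GFPlow cells, 2.88-fold higher in GFPhigh cells. *Slitrk2*, of the same family, had 0.16 and 3.61 FPKM, and *Slitrk3* was listed at 0 in GFPhigh and at 0.96 FPKM in GFPlow cells. The lipid-anchored netrin-G2 gene *Ntng2* had 7.27 and 16.1 FPKM, 2.21-fold higher in GFPlow cells, and *Ntng1* 0.25 and 1.07 FPKM. *Plxdc2*, named for a plexin domain, had 113 and 75.95 FPKM, a ratio of 1.49 that falls just short of enrichment, and *Plxdc1* had 5.87 and 5.71 FPKM.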
